A study of Mus musculus with 18 samples.

Results

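The Period genes Per1, Per2 and Per3 and the cryptochrome genes Cry1 and Cry2 are the 5 genes examined here, picked by symbol, out of 12019 genes in a table of mouse liver expression. All 5 were found. The livers came from C57BL/6J mice that were 21 weeks old when 8 weeks of intervention began. Control mice ate ad libitum (6 libraries by the labels), and 3 libraries each came from mice under 30% caloric restriction, rapamycin (42 mg/kg/day), metformin (37.5 mg/kg/day) or TM5614 (20 mg/kg/day), each compound given in the chow. Rapamycin inhibits the kinase mTOR, metformin is a biguanide that lowers blood glucose, and TM5614 is an inhibitor of plasminogen activator inhibitor 1. All livers were rinsed of blood by perfusion before the RNA was taken, and no label gives the sex of the mice, the time of day at which they were killed or when the restricted mice were fed.

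PER and CRY proteins are the repressors of the circadian clock. The activators CLOCK and BMAL1 (gene Arntl) bind E-boxes and switch on Per and Cry genes, whose products gather in the cytoplasm, return to the nucleus and shut the activators off, so that the transcripts rise and fall once a day. In liver the phase of this loop follows the time of feeding, and the loop drives daily rhythms of lipid, glucose and xenobiotic metabolism. Because these transcripts change through the day and the time of collection is not stated, a change of level and a shift of phase cannot be told apart in any value below.

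The 250 bases in front of the transcription start were searched for exact matches to clock elements, and elements outside these windows were not searched. Windows are printed because the members moved in different ways across the interventions. RefSeq (GRCm38.p6) gave a promoter entry for 4 of the 5 members, with 2 starts for Per1; no window of Per2 was searched. Searched on both strands were the E-box CACGTG and the E-prime box CACGTT, which CLOCK and BMAL1 bind; the D-box as TTATGTAA or TTATGCAA, which DBP, TEF and HLF bind; the cAMP response element core TGACGT; the nuclear receptor core site AGGTCA, and the GC box GGGCGG. Capitals mark E-boxes, E-prime boxes and D-boxes, and each line runs 5′ to 3′ on the gene's strand up to the start. Bases at that end that GENCODE M21 places in an exon were left off, 10 for Cry1 and 1 for the upstream start of Per1. Positions given below count from the RefSeq start and include the bases left off.
Per3, chr4:151044666-151044915, minus strand: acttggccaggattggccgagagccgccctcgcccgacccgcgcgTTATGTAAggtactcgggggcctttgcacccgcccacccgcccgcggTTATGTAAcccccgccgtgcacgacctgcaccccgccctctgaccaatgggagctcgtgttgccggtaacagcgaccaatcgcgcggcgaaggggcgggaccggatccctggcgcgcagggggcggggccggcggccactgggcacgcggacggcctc
Cry1, chr10:85185065-85185304, minus strand: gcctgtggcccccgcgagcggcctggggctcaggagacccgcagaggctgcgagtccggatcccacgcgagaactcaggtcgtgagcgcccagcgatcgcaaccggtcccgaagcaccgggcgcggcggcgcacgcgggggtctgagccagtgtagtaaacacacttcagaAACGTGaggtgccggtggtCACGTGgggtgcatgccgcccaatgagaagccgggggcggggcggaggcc
Cry2, chr2:92434070-92434319, minus strand: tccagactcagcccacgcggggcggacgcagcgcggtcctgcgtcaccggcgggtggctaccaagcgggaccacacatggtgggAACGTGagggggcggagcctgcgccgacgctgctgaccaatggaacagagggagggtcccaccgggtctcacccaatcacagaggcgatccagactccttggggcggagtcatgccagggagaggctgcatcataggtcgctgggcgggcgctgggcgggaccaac
Per1, upstream start, chr11:69098699-69098947, plus strand: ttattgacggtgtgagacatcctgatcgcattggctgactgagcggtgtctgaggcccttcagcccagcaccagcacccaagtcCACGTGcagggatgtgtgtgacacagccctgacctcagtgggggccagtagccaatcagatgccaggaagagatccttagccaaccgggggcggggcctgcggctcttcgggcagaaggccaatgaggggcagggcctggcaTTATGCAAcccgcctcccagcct

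The 250 bases before the start of Per3 held the D-box TTATGTAA at 2 places, from 205 to 198 and from 158 to 151 bases before the start. Of 32851 promoter windows of 250 bases, 0.819% held this D-box at least once and 6 windows (0.0183%) held it 2 or more times. Cry1 held an E-box 60 to 55 bases and an E-prime box 79 to 74 bases before its start. Cry2 held an E-prime box 166 to 161 bases before its start, and Per1 held an E-box (166 to 161 bases) and the other D-box form (24 to 17 bases) before its upstream start. E-boxes were found in 6.02% of all windows, E-prime boxes in 3.85% and the D-box TTATGCAA in 0.694%. The window of the other Per1 start, chr11:69099902-69100151, held the cAMP response element core 132 to 127 bases before that start, a motif of 6.47% of windows. Of the remaining motifs, GC boxes were found in every window of the members and in 32.7% of all windows, and the receptor core site once, before the upstream start of Per1, against 14% of all windows. These are matches of letters in a short window and not measured binding.

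The values are group means of normalized counts, a fold is a ratio of 2 such means, and log2 fold changes and adjusted p-values are those of the authors' deposited table. A gene was called where that p was under 0.05. No unadjusted p is given there. The means carry no spread per library, so no SD is given and interventions could not be tested against each other. The smallest control mean above 0 in the table was 0.315, among those of the groups of 3 libraries (0.299 to 0.322), so it is not known whether all 6 control libraries entered the control mean. Hepatocyte markers were abundant in every group; under caloric restriction 2 of 6 rose (Alb and Hnf4a) and 2 fell (Ttr and Serpina1c), and none was called with a compound. The median gene moved by at most 0.015 on the log2 scale between groups. The control, which all 4 comparisons share, stood apart in markers of pancreatic acinar cells: their 5 means summed to 457 normalized counts there and to between 37.4 and 97.5 in the other groups, with the amylase gene Amy2a5 at 183 in the control and listed at 0 elsewhere. Of these 5 genes 2 fell under caloric restriction (Cela2a and Cela1), 1 under rapamycin (Cela1) and 1 under TM5614 (Cela2a), and the others had no adjusted p apart from Cela1 under TM5614 (adjusted p = 0.0772, authors' deposited table). The part of this difference in the members' values was not tested.

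Caloric restriction raised 4 of the 5 genes and lowered none, by factors between 3.13 and 5.68, and the remaining gene, Per1, did not pass. Of the 11760 genes with an adjusted p, 9.74% were called higher under caloric restriction and 9.24% lower. The median log2 fold change was 2.08 over the 5 members and 0.012 over all genes with an adjusted p. Restriction also gave each of the 5 members its highest group mean.

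Per2, whose protein limits how much repressor complex forms, had a group mean of 61.5 normalized counts under ad libitum feeding and 350 under caloric restriction in the authors' deposited table. Means of 30.6 under rapamycin, 102 under metformin and 139 under TM5614 completed its range of 11.4-fold in the authors' deposited table. The rise under restriction had a log2 fold change of 2.51 and an adjusted p of 2.65e-10 there. It ranked 24th from the top among the 8563 genes whose mean across groups reached 50. Per3, the PER paralog that can be lost with little effect on the core rhythm, had 24.1 normalized counts in the control, the lowest level per kilobase of the family (2.51), and 126 with restriction (2.38 on the log2 scale, adjusted p = 6.18e-05, authors' deposited table). For Per3 the same table lists 12.1 under rapamycin, 85.9 under metformin and 100 under TM5614. Per1, the PER gene that responds acutely to hormones and other signals, stood at 298 in controls and at 507 with restriction (0.77 on the log2 scale, adjusted p = 0.113, authors' deposited table). Its means under rapamycin, metformin and TM5614 were 155, 178 and 274 in the authors' deposited table. Per1 thus had the smallest fold of the family under restriction, and it was the member with the smallest range over the groups, 3.27-fold.

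Cry1, the cryptochrome that peaks late in the cycle and is the stronger repressor, went from 65.4 to 275 with restriction (2.08 on the log2 scale, adjusted p = 2.24e-11, authors' deposited table). The other groups lay at 124 (rapamycin), 68.8 (metformin) and 54.1 (TM5614) in the authors' deposited table. Cry2, its paralog, stood at 179 in controls and at 560 with restriction (1.64 on the log2 scale, adjusted p = 2.50e-10, authors' deposited table). Its means were 112 under rapamycin, 196 under metformin and 231 under TM5614, again from the authors' deposited table. Among the 8563 genes, Per3 ranked 31st, Cry1 42nd and Cry2 78th by log2 fold change under restriction, and Per1 464th.

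**Figure D1:**
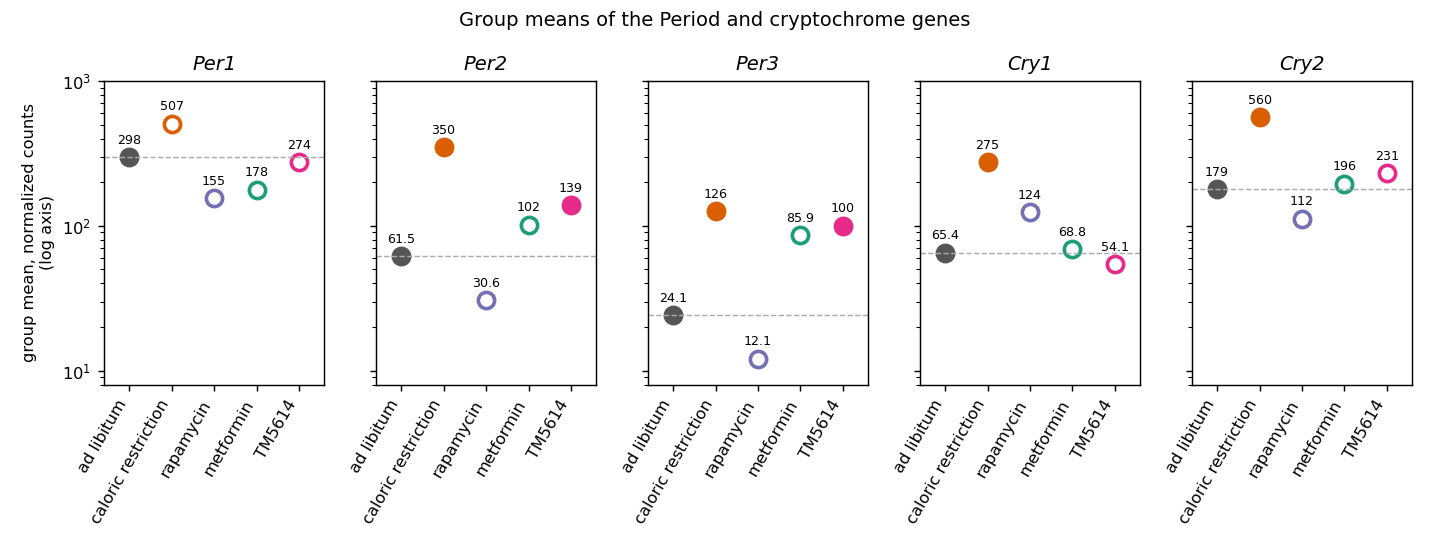
Group means of the 5 genes in normalized counts, on a shared log axis, one panel a gene and one point a group; the dashed line is the ad libitum mean. The ad libitum point is filled grey and has no call. Filled coloured points were called against ad libitum and open points were not or have no adjusted p. The filled coloured points are caloric restriction for Per2, Per3, Cry1 and Cry2, and TM5614 for Per2 and Per3.

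Under TM5614 the 2 genes Per2 and Per3 rose and the other 3 members did not pass. Per3 increased 4.15-fold (log2 fold change 2.06, adjusted p = 0.00521) and Per2 increased 2.25-fold (log2 fold change 1.17, adjusted p = 0.0389) in the authors' deposited table. Per1 (-0.12, adjusted p = 0.902), Cry1 (-0.27, adjusted p = 0.699) and Cry2 (0.37, adjusted p = 0.433) had small log2 fold changes with TM5614 in the authors' deposited table. Of 10834 genes with an adjusted p, 2.01% were called higher and 1.95% lower under TM5614. By log2 fold change Per3 ranked 9th from the top of 8563 genes and Per2 41st. The call for Per2 lies close to the threshold.

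No member passed under rapamycin, where Cry1 and the other 4 genes had log2 fold changes of opposite sign. Rapamycin gave Per1, Per2, Per3 and Cry2 their lowest group means, with log2 fold changes of -0.943, -1.005, -0.998 and -0.672 and adjusted p-values of 0.185, 0.198, 0.507 and 0.164 in the authors' deposited table. Cry1 had a log2 fold change of 0.93 under rapamycin (adjusted p = 0.0735, authors' deposited table), the nearest of the 5 to the threshold. Called across the table were 0.714% of 10369 genes in the higher and 0.675% in the lower direction under rapamycin. In size these values were far from the middle of the distribution: Per2, Per3 and Per1 ranked 46th, 47th and 56th from the lowest of 8563 genes, and Cry1 88th from the highest. Of the 56 genes at or below the value of Per1, 19 were called, so a fold of this size passed in some genes and not in others.

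Metformin likewise called none of the 4 members that have an adjusted p, and Per3 has none. For Per3 the authors' deposited table gives a log2 fold change of 1.83 with no adjusted p, and for Per2 0.72 (adjusted p = 0.808). Per1 stood at -0.75 (adjusted p = 0.749), Cry1 at 0.09 and Cry2 at 0.13 (adjusted p = 0.993 for both) in the authors' deposited table. Over all 7350 genes with an adjusted p, 0.163% were called higher and 0.0816% lower under metformin. Per3 ranked 12th and Per2 69th from the highest and Per1 83rd from the lowest of 8563 genes, while Cry2 ranked 2134th and Cry1 2832nd from the highest. The ribosomal RNA precursor Rn45s made up 4.40% of the summed group means under metformin, against 0.132% to 0.555% in the other groups. How this share was spread over the metformin libraries is not known, and the part of Rn45s in these values was not tested.

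**Figure D2:**
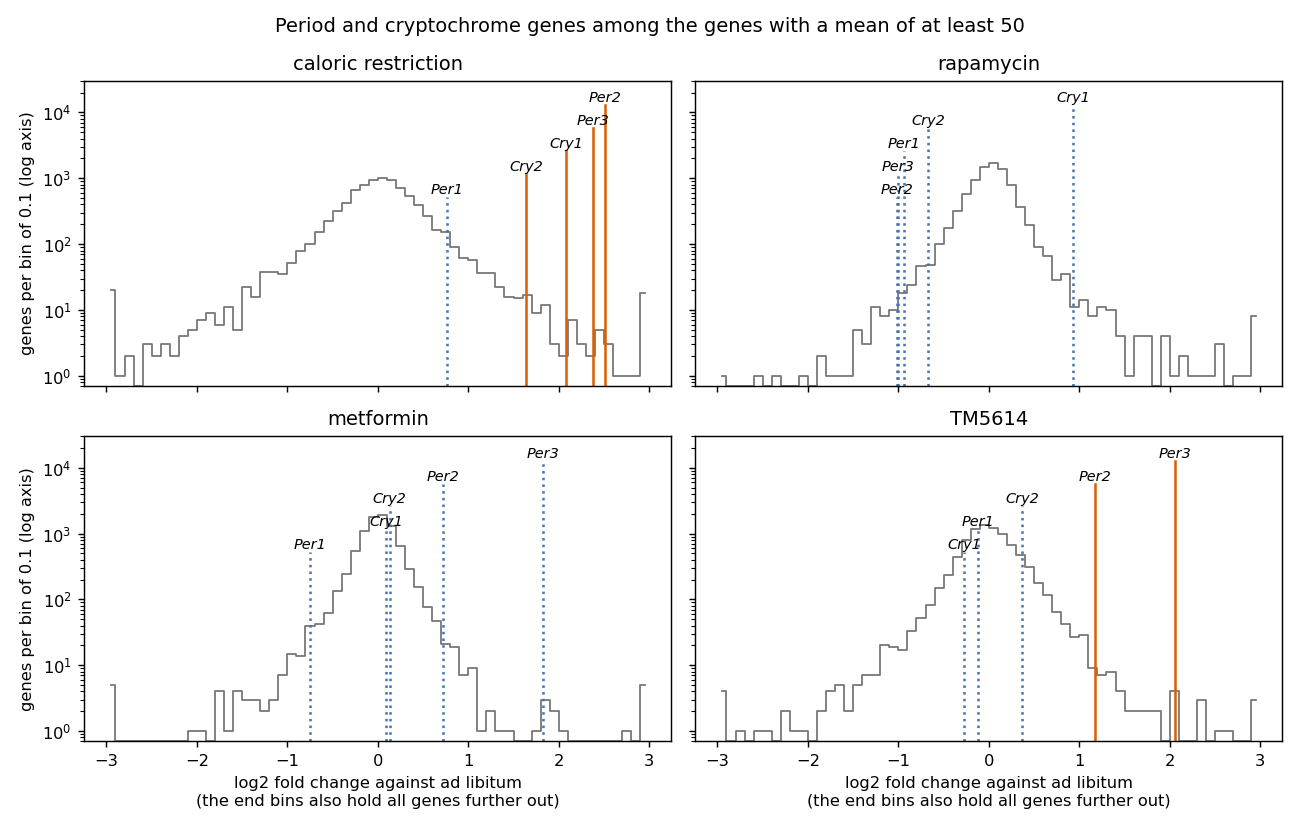
Log2 fold changes of the 5 genes (vertical lines) over the distribution of the same 8563 genes (outline, genes per bin on a log axis; the end bins also hold genes further out), one panel a comparison with ad libitum. Solid lines were called at an adjusted p under 0.05 and dotted lines were not or have no adjusted p; Per3 lies in the upper tail in all panels but that of rapamycin.

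The members did not share one order of the groups. Per2, Per3 and Cry2 ran from rapamycin through ad libitum, metformin and TM5614 to caloric restriction. Per1 had the control second from the top instead, and Cry1 had TM5614 at the bottom and rapamycin second from the top. The mean under restriction exceeded the mean under rapamycin 11.4-fold for Per2 and 10.4-fold for Per3, but 2.22-fold for Cry1. Against TM5614 the same ratio was 1.25 for Per3, 2.52 for Per2 and 5.08 for Cry1, and against metformin it was 1.46 for Per3, 3.44 for Per2 and 3.99 for Cry1. Neighbours in these orders other than the control could not be tested against each other. Against the control, the calls above are the differences with an authors' adjusted p under 0.05.

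Divided by the length of each gene's exons in GENCODE M21, the makeup of each family differed between groups. In the control Per1 made up 80.3% of the summed Period level per kilobase, Per2 15.9% and Per3 3.81%. Under caloric restriction these shares were 55.3%, 36.7% and 8.03%, with a summed level of 163 normalized counts per kilobase against 65.9 in the control. Metformin had a summed level of 57.8 per kilobase, below the control, and shares of 54.5%, 30.0% and 15.5%. TM5614 lay at 82.7 per kilobase with 58.8% from Per1, and rapamycin at 34.0 with 80.9% from Per1, nearly the share of the control.
Cry1 made up 40.8% of the summed cryptochrome level per kilobase in the control and 67.6% under rapamycin, where alone it exceeded Cry2. Its share was 48.1% under restriction, 39.9% under metformin and 30.7% under TM5614. The summed cryptochrome level per kilobase was 47.9 in the control and between 51.7 and 54.8 with the 3 compounds, and 171 under restriction. These shares are descriptions of group means with no spread, and the exon lengths are those of the annotation, not of the transcripts that the liver makes.

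**Figure D3:**
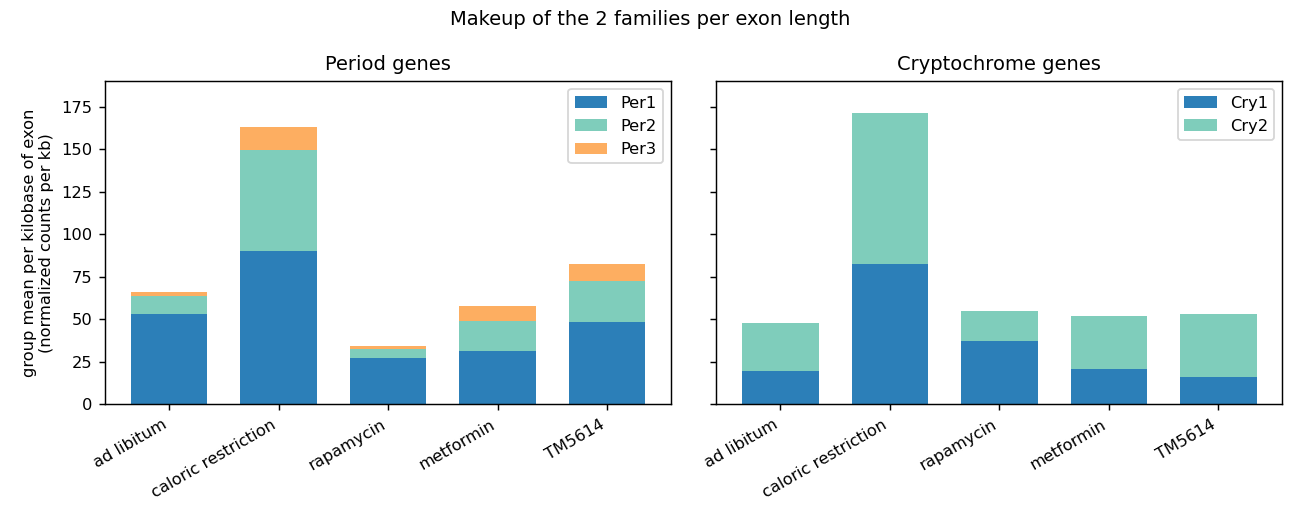
Group means per kilobase of exon, stacked by gene, for the Period genes (left) and the cryptochrome genes (right) in the 5 groups; the axis starts at 0 and group means have no error bars. The Period sum runs from 34.0 under rapamycin to 163 under caloric restriction, and the cryptochrome sum stays between 47.9 and 54.8 outside caloric restriction, where it is 171.

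The other core clock genes were those of the activators, the REV-ERB and ROR receptors, the D-box factors and the other E-box repressors. Of 13 such genes counted here, 12 were in the table. Under caloric restriction 3 rose, 1 fell and 8 did not pass (median log2 fold change 0.59). With TM5614 2 rose and none fell (median 0.21), with rapamycin 1 fell and none rose (median 0.09), and with metformin none was called and 4 had no adjusted p (median 0.01). Over all genes with an adjusted p, 9.74% were called higher and 9.24% lower under restriction, and 2.01% and 1.95% under TM5614. The shares were 0.714% and 0.675% under rapamycin, and 0.163% and 0.0816% under metformin. Counts of the lists below are to be read beside these shares.

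No activator was called in any comparison. Arntl, which encodes BMAL1, had group means of 65.7 in the control, 33.9 under restriction, 137 under rapamycin, 53.2 under metformin and 15.7 under TM5614 in the authors' deposited table. Adjusted p-values for Arntl were 0.426 under restriction, 0.650 under rapamycin and 0.104 under TM5614 in the authors' deposited table, with none for metformin. Clock ranged from 198 under restriction to 385 under rapamycin, with 283 in the control (authors' deposited table; adjusted p = 0.143 and 0.507).

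Nr1d1, which encodes REV-ERB alpha, a repressor of Arntl and Cry1, fell with restriction from 445 to 189 (-1.23 on the log2 scale, adjusted p = 6.71e-04, authors' deposited table). Its relative Nr1d2 rose from 593 to 908 (0.61, adjusted p = 0.00507, authors' deposited table). Rora, an activator at the elements that REV-ERB blocks, had 70.6 in the control and 94.0 under restriction (0.41, adjusted p = 0.311, authors' deposited table). With the compounds none of these 3 receptors passed, Rora having no adjusted p under metformin; their log2 fold changes lay between -0.49 and 0.47 in the authors' deposited table.

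The D-box activators Dbp and Tef were the core genes called in more than 1 comparison. Dbp had group means of 177 in the control, 544 under restriction, 34.2 under rapamycin, 630 under metformin and 644 under TM5614 in the authors' deposited table. It rose under restriction (adjusted p = 0.0222) and TM5614 (adjusted p = 0.0265), fell under rapamycin (adjusted p = 0.00787) and did not pass under metformin (adjusted p = 0.141) in the authors' deposited table. Tef had 550 in the control, 1674 under restriction, 384 under rapamycin, 968 under metformin and 1238 under TM5614, and rose under restriction (adjusted p = 1.25e-07) and TM5614 (adjusted p = 0.00250) in the authors' deposited table. Dbp and Tef had the same order of rapamycin, control, metformin and TM5614 as Per2, Per3 and Cry2. The window of Per3 held the D-box form TTATGTAA and the upstream window of Per1 the form TTATGCAA. No exact match to either form was found in the window of Cry2. Whether D-boxes bear on the order of the groups was not tested. Dbp differed from Per3 in that its mean under restriction was below those with metformin and TM5614. Hlf, the third D-box activator, had log2 fold changes of 0.70 under restriction (adjusted p = 0.0512) and between -0.03 and 0.11 with the compounds in the authors' deposited table. Nfil3, which represses at D-boxes, had 0.80 under restriction and 1.07 under rapamycin (adjusted p = 0.250 and 0.310, authors' deposited table), and -0.32 and 0.10 under metformin and TM5614.

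Of the other E-box repressors none was called; Bhlhe41 has no adjusted p under rapamycin and metformin, nor Ciart under metformin. Ciart, listed under its older symbol Gm129, had means of 25.4 in the control, 159 under restriction, 10.5 under rapamycin, 99.3 under metformin and 103 under TM5614 in the authors' deposited table. Its adjusted p under restriction was 0.0721 at a log2 fold change of 2.65 (authors' deposited table). Bhlhe40 had 2050 in the control, 1141 under metformin and 1002 under TM5614 (adjusted p = 0.897 and 0.276), with 1891 and 2374 under restriction and rapamycin, in the authors' deposited table. Bhlhe41 did not exceed 21.7 normalized counts in any of the 5 groups.

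**Figure D4:**
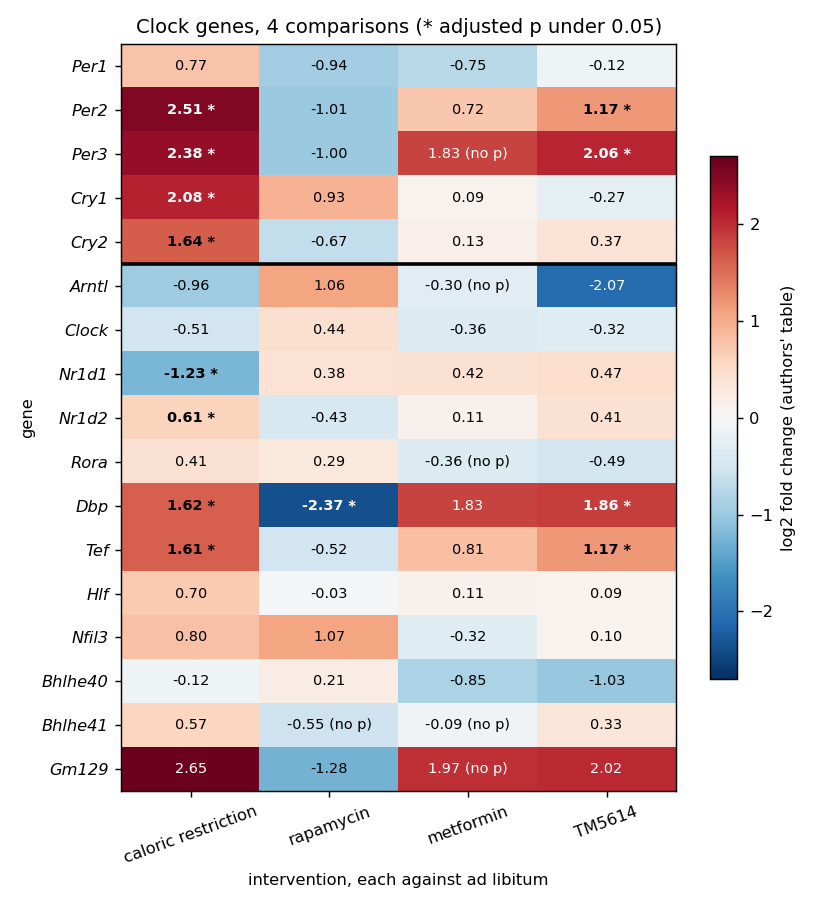
Log2 fold changes against ad libitum from the authors' table for the 5 members (above the line) and 12 other core clock genes (below it), red for higher and blue for lower; an asterisk marks a called gene and "no p" a gene without one. The caloric restriction column holds 4 called members, the TM5614 column 2, and the rapamycin and metformin columns none.

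Among 13 kinases, phosphatases, ubiquitin ligases and deubiquitinases that act on PER and CRY proteins, none was called with a compound. Csnk1e and Fbxl21 have no adjusted p under metformin, nor Fbxl21 under rapamycin. Under caloric restriction 4 of the 13 rose and 1 fell. The casein kinases Csnk1d (0.27, adjusted p = 0.0249) and Csnk1e (0.85, adjusted p = 0.0375), which phosphorylate PER, rose in the authors' deposited table. The ligase subunit Btrc, which marks PER for breakdown, fell by 0.99 on the log2 scale (adjusted p = 1.34e-04, authors' deposited table). The deubiquitinases Usp7 (0.25, adjusted p = 0.0248) and Usp2 (3.27, adjusted p = 0.00165) rose in the authors' deposited table. Usp2, whose own transcript is clock-driven, had 104 in the control, 1004 under restriction, 67.9 under rapamycin, 389 under metformin and 513 under TM5614. None of 5 partners of PER and CRY complexes (Nono, Sfpq, Wdr5, Timeless, Tipin) was called; Timeless and Tipin have no adjusted p under metformin.

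Of 12 clock-controlled liver genes 5 rose and 1 fell under caloric restriction, 2 rose under TM5614 and none was called with rapamycin or metformin. The mitotic kinase gene Wee1 went from 63.7 to 338 with restriction (adjusted p = 4.22e-06, authors' deposited table), with 24.1 under rapamycin. Nampt, the NAD salvage enzyme, rose by 2.03 under restriction (adjusted p = 4.34e-31) and by 0.63 under TM5614 (adjusted p = 0.0122) in the authors' deposited table. Tspan4, a tetraspanin, rose by 1.22 and 0.88 in the same comparisons (adjusted p = 5.17e-05 and 0.0252, authors' deposited table). Rgs16, a regulator of G protein signalling that follows fasting and feeding, rose by 2.28 (adjusted p = 0.0241), Coq10b by 1.12 (adjusted p = 0.00381), and Leo1 fell by 0.86 (adjusted p = 6.14e-04) under restriction in the authors' deposited table.

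Signals known to reach Per genes from outside the loop were followed by 3 lists. Of 11 glucocorticoid-responsive genes 3 rose under caloric restriction: Fkbp5 (1.99, adjusted p = 0.0217), the receptor gene Nr3c1 (0.30, adjusted p = 0.0449) and Hsd11b1, which regenerates active hormone (0.50, adjusted p = 0.00194), in the authors' deposited table. Sgk1 fell under TM5614 by 1.06 (adjusted p = 0.0488), and no gene of this list was called with rapamycin or metformin. Of 12 CREB and feeding-responsive genes none was called under restriction, and G6pc (-1.86, adjusted p = 0.00161) and Insig2 (-1.07, adjusted p = 0.00183) fell under TM5614 in the authors' deposited table. Heat shock and cold-inducible genes, 10 in all, were listed for body temperature cues. None was called with a compound, where Dnajb1 had no adjusted p in any comparison and Hsf1 had none under metformin. Under restriction 6 rose. These were Hspa8 (0.90, adjusted p = 5.57e-06), Hsph1 (1.86, adjusted p = 0.00166), Hspb1 (2.11, adjusted p = 0.00749), Hspa1b (1.79, adjusted p = 0.0494), Hsp90ab1 (0.40, adjusted p = 0.0432) and the cold-inducible Rbm3 (0.77, adjusted p = 0.00299) in the authors' deposited table. Cirbp, also cold-inducible, did not pass under restriction (0.49, adjusted p = 0.284, authors' deposited table). Whether these lists bear on the members' levels was not tested.

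For each member the 3 genes with the most similar profile over the 5 groups were taken from the genes ranked above, by the root mean square difference of log2(mean + 1) centred over the groups. Nearest to Per3 were Gm129 (0.18), Usp2 (0.32) and Tgm1 (0.49). The nearest genes were Ppl (0.22), Wee1 (0.25) and Cyp2a5 (0.41) for Per2, and Sall1 (0.14), Sorbs3 (0.14) and Mknk2 (0.18) for Per1. Cry2 lay nearest to Tppp (0.08), Sult1d1 (0.09) and E130012A19Rik (0.13), and Cry1 to Jun (0.15), Cyp2c38 (0.25) and Chac1 (0.26). No member was among the nearest 3 of another member. Each profile rests on 5 group means and was compared with 8562 genes.

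Whole liver mixes cell types, so that fewer cells of a type and less RNA per cell cannot be told apart. Of 6 macrophage markers 2 fell under restriction (Cd5l and C1qa), and their summed means were 650 there against 1437 in the control and between 947 and 1072 with the compounds. Marco, one of them, had 261 in the control and between 27.3 and 44.5 in the other groups, with no adjusted p. Sinusoidal endothelial markers summed to 843 under rapamycin, where 1 of 5 fell (Stab2), and to between 900 and 1259 in the other groups. Neutrophil markers, 3 in the table, summed to 148 under rapamycin and to between 50.4 and 92.3 elsewhere, with none called. Retnlg had no adjusted p with any compound, and none of the 3 had one under metformin. The stellate cell marker Lrat fell under restriction, while the other 4 of its list did not pass, with log2 fold changes between 0.21 and 0.59. The erythroid marker Alas2 fell there too, while the other 3 in the table did not pass, with log2 fold changes between 0.89 and 1.37. The part of all these markers in the members' values was not tested.

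The genes lie on 5 chromosomes of the mm10 build and are annotated as protein-coding. Which of their bases the authors' counts cover is not given in these sources. In GENCODE M21 Per1 spans chr11:69095217-69109960, Per2 chr1:91415982-91459324, Per3 chr4:151003652-151044665, Cry1 chr10:85131700-85185064 and Cry2 chr2:92403646-92434043. Cry2 shares 295 exon bases with the noncoding gene D930015M05Rik on the other strand, and whether reads were counted by strand is not stated in these sources. Per3 overlaps Camta1 on the same strand without a shared exon base, and Per1, Per2 and Cry1 overlap no annotated gene.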

How the data were processed

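Whole-liver RNA of 18 libraries was sequenced after poly(A) selection. Reads were aligned with HISAT2 2.0.5 to mm10, per the submitters' processing notes. How reads were counted, on which annotation and whether by strand, is not given in the sources used here. All values are from 1 table that the authors deposited and, by its name, made with DESeq2. Per the file headers each group has a normalized signal, read here as the authors' mean of counts after division by size factors, along with the authors' log2 fold change and the authors' adjusted p-value for each intervention against the control, as deposited. Each adjusted p covers those genes of its comparison that have one, and none was adjusted over the members alone. Another table has 18 columns whose names match no label; none was given a sample and none was used, so depth per library is unknown and the planned limma fits were not run. The design text gives 30 mice, while the labels hold 18 libraries, and nothing says that libraries of 1 group came from separate animals, so the p-values measure the spread between these libraries. The interventions share the control, so their values are set side by side only.

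Computed here were ratios of means, means per kilobase of exon union (GENCODE M21, matched by symbol), ranks among genes with a mean of at least 50, profile distances on log2(mean + 1), and exact motif matches in RefSeq promoters (Python 3.11.15, pandas 2.3.3). Distances were tested on shuffled values with planted near copies. The motif search was tested on random sequences of A and T with E-boxes, E-prime boxes, cAMP response element cores or GC boxes planted. D-boxes and the receptor core site were not planted, and sequences rich in G and C were not simulated. Named are all members, all core clock genes, and genes of the other lists called in at least 1 comparison; 2 listed genes are not reported here and are left out of the counts over lists. Symbols not in the table were matched through RefSeq synonyms of a single gene (Ciart as Gm129). Members and lists were chosen with earlier results of these data known; the count of windows with 2 D-boxes was added after the Per3 window was seen.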

Additional observations from a re-analysis of the deposited data

How the results depend on the processing

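The 4 members called under caloric restriction were called at adjusted p thresholds of 0.01 and 0.1 too, and with a log2 fold change of at least 0.58 asked for. Under TM5614 the count of members was 1 at 0.01 (Per3), and under rapamycin it was 1 at 0.1 (Cry1). The 75 other listed genes, cell type markers aside, include the glucocorticoid-responsive, the CREB and feeding-responsive, and the heat shock and cold-inducible genes. The called count of these 75 genes changed from 24 to 15 at 0.01 under caloric restriction. Under TM5614 it changed from 7 to 3 at 0.01 and 12 at 0.1, and under metformin from 0 to 2 at 0.1. Both genes gained under metformin belong to the glucocorticoid-responsive or the CREB and feeding-responsive list. Here a threshold alone changed, and shares over all genes at 0.01 and 0.1 are not given. All 100 recomputed log2 fold changes of the members kept their sign, over the ratio of means, pseudocounts of 1 and 10, centring on the median gene and scaling without Rn45s. The largest move was 0.39, with 10 added to the means, and 0.11 or less under the other 4. No paired analysis was possible because no column of values per library could be given a sample; for the same reason limma, the replicate block and leaving out each library were not run. Depth per library is unknown, and Per3, at 24.1 normalized counts in the control, rests on the fewest reads.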

Other observations

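The authors' deposited table also holds a log2 fold change column headed TM5441, a compound named in none of the labels, with no group mean and no adjusted p. Its values were 0.82 for Per3, 0.17 for Cry2, -0.11 for Per2, -0.21 for Cry1 and -0.37 for Per1 in the authors' deposited table. Which libraries and which control stand behind this column is not known.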
